A study of Mus musculus with 14 samples.

Results

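Solute carriers are the membrane proteins that move nutrients, metabolites, ions and metals across the plasma membrane and the membranes of organelles. The mouse genes considered here are those whose symbol begins with Slc, a family number, the letter a and a member number, and whose value was 10 or more in all 4 input columns. Of 14837 genes in the input table, 223 carried such a symbol and 135 met the level rule. Of the 135 members, 64 were sorted as carriers of the plasma membrane, 36 as carriers of the endoplasmic reticulum, Golgi, endosomes, lysosomes, peroxisomes or vesicles, and 29 as mitochondrial carriers of the Slc25 family. A further 4 carry a solute carrier name without being carriers (Slc4a1ap, Slc7a6os, Slc9a3r1 and Slc9a3r2), and Slc10a3 and Slc41a3 were left unsorted. The members were chosen by their input level in all 4 libraries, so that level is described and not tested.

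The cells were mouse muscle stem cells (MuSCs), the resident progenitors of skeletal muscle, grown on Matrigel in serum-containing medium without further treatment. Lin28a+ MuSCs, with the genotype given as Lin28a positive, came by the study's methods from mice carrying Lin28a-CreERT2 and LSL-tdTomato, in which a tamoxifen-inducible Cre driven by Lin28a switches on a red reporter, and control MuSCs have the genotype given as Control. Each group had 2 libraries of input RNA, 2 of m6A-RIP (antibody pulldown of RNA with N6-methyladenosine) and 2 of Igf2bp3-RIP (pulldown of RNA bound by Igf2bp3, a protein known to read m6A), and the Lin28a+ group had 2 of Lin28a-RIP (pulldown of RNA bound by Lin28a), 14 libraries in all. The sources used here do not tie the 2 libraries of a group to separate animals or cultures, so p-values measure only the spread between these libraries, which may be technical. In the input table the columns of the Lin28a+ libraries bear the names of m6A-RIP libraries 1 and 2. They were taken as input because the labels of the Lin28a+ input samples point to this table and no other column is left for them, and each Lin28a+ RNA value and each difference from input rests on that assignment. In the m6A-RIP table both Lin28a+ columns bear 1 name. None of these 4 libraries could be tied to a replicate number, and they are called libraries a and b.

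Library totals ran from 4842915 to 6220960 in the input, from 21350962 to 31830638 in m6A-RIP, from 9215355 to 34142094 in Igf2bp3-RIP and from 33908110 to 36610494 in Lin28a-RIP. The Igf2bp3-RIP libraries of replicate 1 held 9215355 and 12617254 counts and those of replicate 2 held 27592959 and 34142094. Input values need not be whole. For 63 members (46.7%) they become whole when multiplied by a whole number from 2 to 20, to within 0.01, as averages over transcripts would, and the sources used here do not say how they were made. Ratios between libraries of the same gene are unaffected by such a divisor, whereas levels of different genes cannot be ranked. The SEs and p-values, from rounded values taken as counts, and the level rule may depend on it. Levels are given as CPM, counts scaled to a common library size, with library sizes adjusted by TMM. Pairs of CPM values are those of the 2 control and then of the 2 Lin28a+ libraries, and changes are log2 fold changes ± SE. All 9 myogenic markers were in the input table, with summed levels of 9465 and 9681 CPM in the control and 11653 and 11777 CPM in the Lin28a+ libraries, but the list split, with 3 higher and 4 lower (Myf5 by -1.21, Des by -0.53, Vcam1 by -1.93 and Sdc4 by -1.10). Of the fibro-adipogenic markers, 5 of 7 were in the table, with sums of 131 to 169.6 CPM, Pdgfra at or under 0.187 CPM in every library, Col1a2 lower in Lin28a+ libraries (-4.71) and Ly6a higher (1.61). Endothelial, leukocyte and red cell markers summed to at most 2.81 CPM per library, with Ptprc at 0 in all 4. The pericyte and smooth muscle sum of 5405 to 7443 CPM was nearly all Acta2, and Myh11 was at most 0.161 CPM. Myog, a factor that marks the onset of myogenic differentiation, was at 766 and 775 CPM in the control and 2769 and 2809 CPM in the Lin28a+ libraries. The part of these markers in the carrier values below was not tested. In bulk RNA, fewer cells of a type and less RNA per cell cannot be told apart.

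Carriers at the cell surface set what a cell takes up and releases. Glucose enters through the Slc2 family and lactate crosses by the Slc16 family. Amino acids enter by several families that exchange one amino acid for another or couple uptake to sodium, and some of these carriers work only as a pair with the heavy subunit encoded by Slc3a2. Most carriers of the Slc25 family sit in the inner mitochondrial membrane and pass nucleotides, phosphate, carboxylates, amino acids, cofactors and iron between cytosol and matrix.

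RNA of the solute carriers moved in both directions between control and Lin28a+ MuSCs. Of the 135 members, 29 were higher and 44 lower in Lin28a+ MuSCs, and 62 did not pass the test (edgeR's quasi-likelihood test, Benjamini-Hochberg adjusted p under 0.05 over 11317 genes). That is 54.1% of members, beside 56.8% of all genes tested (28.1% higher and 28.7% lower) and 56.9% of those that meet the level rule, so the share of members that changed is near the background. The median log2 fold change (Lin28a+ over control) was -0.028 over the members and 0.010 over all genes tested. Control and Lin28a+ libraries did not overlap for 112 members (83.0%), beside 84.8% of all genes. The shares of 28.1% and 28.7% are also those to set beside the counts of each list below. DESeq2 called 11 members higher and 24 lower, against 26.9% of all genes, and so lost 38 of the 73 calls (the other 35 held in all 10 alternatives), and limma on the unrounded values called 36 higher and 54 lower, against 68.2% of all genes.

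Plasma membrane and mitochondrial carriers did not move as blocks. Of 64 plasma membrane carriers 12 were higher and 24 lower, with a median log2 fold change of -0.048 and a range from -2.77 to 2.41. Of 29 mitochondrial carriers 9 were higher and 10 lower, with a median of 0.097 and a range from -1.70 to 0.76. Of 36 carriers of other organelles 5 were higher and 10 lower, with a median of -0.12 and a range from -1.02 to 0.71. No difference between the classes was tested. The plot of fold changes by class shows the classes side by side.

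**Figure D1:**
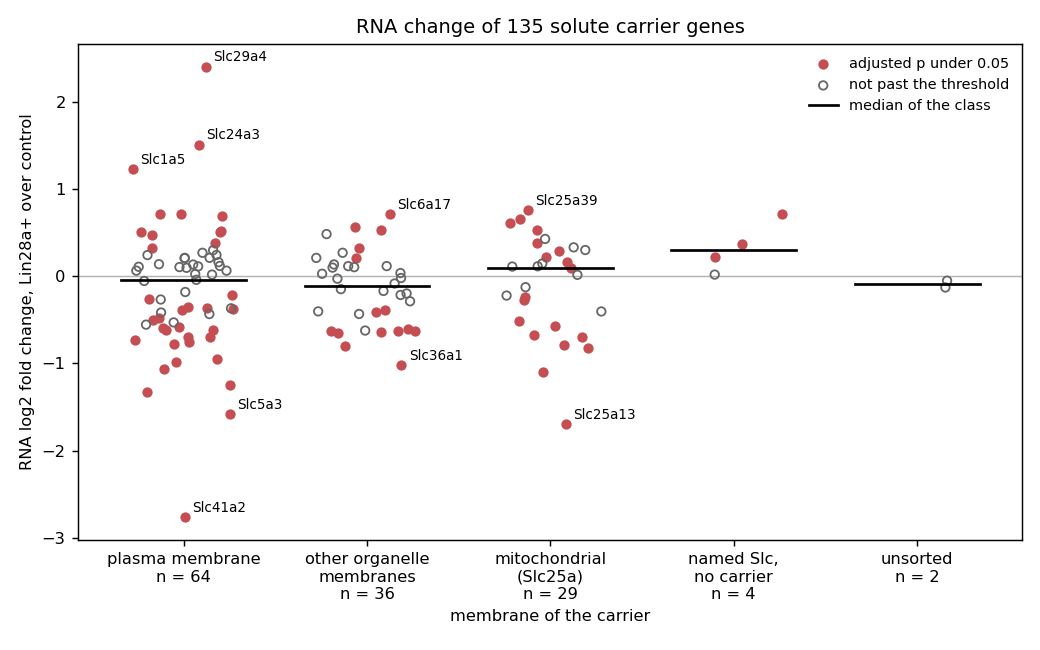
Log2 fold change of RNA (Lin28a+ over control MuSCs) for each of the 135 members, by class, with members past the adjusted p threshold of 0.05 filled in red, the others as open grey circles and the median of each class as a black line. All classes of carriers straddle 0, and the widest spread, from -2.77 (Slc41a2) to 2.41 (Slc29a4), is among plasma membrane carriers.

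Amino acid carriers split. Of 8 amino acid carriers picked to be named in every comparison 4 were higher and 4 lower. Slc1a5, a sodium-coupled exchanger of glutamine and other neutral amino acids, was at 15.5 and 16.7 CPM in the control and 36 and 39.9 CPM in the Lin28a+ libraries, a log2 fold change of 1.23 ± 0.080 (SE, adjusted p = 0.000102, n = 2 libraries per group, edgeR). Both Lin28a+ libraries lay above both control libraries, at 2.34 times the control level. Slc7a5, the carrier of large neutral amino acids such as leucine, rose from 248 and 260.3 CPM to 359 and 367 CPM, by 0.51 ± 0.033 (adjusted p = 9.98e-05). Slc3a2, the heavy subunit with which Slc7a5 and Slc7a11 pair, rose from 58.1 and 56.8 CPM to 82.3 and 82.4 CPM, by 0.52 ± 0.037 (adjusted p = 0.000134). Slc1a4, which exchanges alanine, serine and cysteine, rose from 50.4 and 58.1 CPM to 73.3 and 81.8 CPM, by 0.51 ± 0.085 (adjusted p = 0.00365), so the Slc7a5 and Slc3a2 subunits and both Slc1 members were higher in each Lin28a+ library than in either control library.

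The other 4 of these 8 amino acid carriers were lower. Slc7a11 takes up cystine in exchange for glutamate, which feeds glutathione synthesis. Its RNA was at 7.68 and 8.21 CPM in the control and 3.54 and 4.50 CPM in the Lin28a+ libraries, a change of -0.99 ± 0.14 (adjusted p = 0.00178), and the groups did not overlap. With DESeq2 this change did not pass the threshold (adjusted p = 0.17). Slc7a1, a carrier of arginine and lysine, was at 61.6 and 67.4 CPM, then 46.8 and 44.6 CPM, a change of -0.50 ± 0.062 (adjusted p = 0.00103). Slc7a2, a second carrier of cationic amino acids, not among the 8 but one of the 6 members with the largest falls, was at 24.2 and 25.1 CPM, then 9.63 and 10.0 CPM, a change of -1.33 ± 0.069 (adjusted p = 5.1e-05). Slc38a1 and Slc38a2 carry glutamine and other neutral amino acids with sodium. Slc38a1 was at 94 and 94.5 CPM in the control and 70.9 and 75.6 CPM in the Lin28a+ libraries, and Slc38a2 at 232 and 236 CPM, then 191 and 201 CPM. Their changes were -0.36 ± 0.042 (adjusted p = 0.000782) and -0.26 ± 0.033 (adjusted p = 0.00119), smaller than that of Slc7a2, with no overlap between groups in either gene. Of the other amino acid carriers measured, Slc7a6, Slc6a9, Slc16a10, Slc38a6, Slc38a10 and Slc43a2 did not pass the test.

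Because several amino acid carrier genes are known to respond to Atf4, the promoter windows of members were read for TGATGCAA, a sequence known from amino acid response elements, on either strand. RefSeq windows on GRCm38.p6, from 250 bases before to 50 after a start site, were at hand for 105 members in 140 windows. The motif was in 0.895% of all 32851 windows and in 2.14% of the 140 windows of members, 1 each of Slc1a4, Slc7a11 and Slc50a1. Slc7a11 holds it on both strands within the 100 bases before the start site, chr3:50443614-50443713, transcribed from the minus strand. It is shown, with both copies in capitals, since Slc7a11 fell while Slc1a4, which also holds the motif, rose, and Slc50a1 at 0.48 did not pass the test (adjusted p = 0.0693):
Slc7a11: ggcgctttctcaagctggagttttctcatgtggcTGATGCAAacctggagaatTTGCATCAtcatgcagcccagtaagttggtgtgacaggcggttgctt
The copy in the transcribed direction begins at position -66 from the start site and the other, read on the opposite strand, at -47. RNA of Atf4 itself was at 461 and 464 CPM in the control and 515 and 504 CPM in the Lin28a+ libraries, a log2 fold change of 0.14 ± 0.024 (adjusted p = 0.00385), and that of Nfe2l2, a second known regulator of Slc7a11, was at 193 and 196 CPM and 129 and 121 CPM, a change of -0.64 ± 0.036 (adjusted p = 6.54e-05). A match of letters says nothing on binding, which was not measured for either factor.

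The glucose carriers Slc2a1 and Slc2a3 were higher and the lactate carrier Slc16a1 was lower. Slc2a1, a glucose carrier of most cells, rose from 33.3 and 35.6 CPM to 48.2 and 47.8 CPM, by 0.47 ± 0.051 (adjusted p = 0.000623), a call lost with DESeq2 (adjusted p = 0.0715). Slc2a3, a glucose carrier of high affinity, was at 3.56 and 3.38 CPM in the control and 5.70 and 5.52 CPM in the Lin28a+ libraries, a change of 0.69 ± 0.13 (adjusted p = 0.0344). The groups did not overlap in either gene, but the Slc2a3 call was lost with DESeq2 (adjusted p = 0.457) and with any of the 4 input libraries left out. Slc2a12, a further member of the glucose carrier family, went the other way, from 9.55 and 8.85 CPM to 4.91 and 6.13 CPM, a change of -0.73 ± 0.13 (adjusted p = 0.00441) that was lost with DESeq2 and without Lin28a+ library a. Slc16a1, which carries lactate and pyruvate with a proton, went from 380.3 and 373 CPM to 294 and 297 CPM, a change of -0.35 ± 0.025 (adjusted p = 0.00014), and both Lin28a+ libraries lay below both controls. Bsg, which brings Slc16a1 to the membrane, was at 365 and 369 CPM and at 407 and 417 CPM, a change of 0.17 ± 0.025 (adjusted p = 0.00241). The lactate exporter Slc16a3 did not meet the level rule and is not a member.

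Of the 8 carriers of ions, metals, phosphate and osmolytes on a list set for the naming rule, 0 were higher, 4 were lower and 4 did not pass the test, beside 28.1% higher and 28.7% lower of all genes, with a median log2 fold change of -0.48. Slc6a6, the taurine carrier, was at 241 and 247 CPM in the control and 163 and 162 CPM in the Lin28a+ libraries, a change of -0.58 ± 0.028 (adjusted p = 4.17e-05). Slc6a8, the creatine carrier that supplies the phosphocreatine store of muscle, was at 56.2 and 56 CPM, then 37.1 and 36 CPM, a change of -0.62 ± 0.044 (adjusted p = 0.000141). Slc12a2, which brings in sodium, potassium and chloride, was at 69.1 and 69.4 CPM, then 42.6 and 42.5 CPM, a change of -0.70 ± 0.040 (adjusted p = 6.55e-05). In all of these the Lin28a+ libraries lay below the controls, and so they did for Slc39a14, an importer of zinc and iron, at 16.3 and 16.6 CPM against 10.0 and 10.2 CPM (-0.70 ± 0.069, adjusted p = 0.000442, lost with DESeq2 at 0.133). Slc20a1, a phosphate carrier, Slc11a2, a carrier of ferrous iron, and Slc30a1, the zinc exporter, had log2 fold changes of 0.24, 0.27 and -0.37, none past the threshold.

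The largest changes at the plasma membrane included carriers of magnesium, inositol, monoamines and calcium. Slc41a2, a carrier known for magnesium, was at 19.1 and 19.3 CPM in the control and 2.75 and 2.86 CPM in the Lin28a+ libraries, a change of -2.77 ± 0.090 (adjusted p = 1.34e-05), the largest fall of any member. Slc5a3, which takes up the osmolyte myo-inositol with sodium, was at 25.3 and 25.7 CPM, then 8.65 and 8.38 CPM, a change of -1.58 ± 0.067 (adjusted p = 2.9e-05). Both genes were lower in each Lin28a+ library than in either control library. Slc23a2, a carrier of vitamin C, was at 19.9 and 19.6 CPM, then 8.06 and 8.59 CPM, a change of -1.24 ± 0.072 (adjusted p = 7.2e-05). Slc44a1 and Slc44a2, of the choline carrier family, were at 72.7 and 71.3 CPM and 244 and 244 CPM in control and 33.6 and 35.2 CPM and 146 and 144 CPM in Lin28a+ libraries, changes of -1.06 ± 0.045 (adjusted p = 2.92e-05) and -0.75 ± 0.026 (adjusted p = 1.63e-05). Slc19a2, the thiamine carrier, was at 33.3 and 34 CPM, then 17.9 and 17 CPM, a change of -0.95 ± 0.058 (adjusted p = 8.3e-05). Slc23a2, Slc44a1, Slc44a2 and Slc19a2 thus had no overlap between groups, whereas Slc52a2, a riboflavin carrier, was higher, at 34.5 and 37 CPM, then 45.6 and 48 CPM (0.38 ± 0.058, adjusted p = 0.00231, lost with DESeq2 at 0.167). Of other vitamin carriers among the members, Slc19a1, Slc46a1 and Slc5a6 did not pass the test.

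The largest rise was in Slc29a4, a carrier of monoamines and adenosine, at 2.25 and 2.25 CPM in the control and 13 and 11 CPM in the Lin28a+ libraries, a change of 2.41 ± 0.15 (adjusted p = 8.32e-05). Its input values of 12.5 and 14 in control put it just inside the level rule. Slc24a3, which exchanges sodium for calcium and potassium, rose from 4.87 and 5.15 CPM to 14.7 and 13.9 CPM, by 1.51 ± 0.090 (adjusted p = 7.8e-05). Slc9a5, a sodium-proton exchanger, rose from 8.62 and 10.8 CPM to 15.7 and 16.4 CPM, by 0.71 ± 0.11 (adjusted p = 0.00291), a call lost with DESeq2 (adjusted p = 0.142), and in these 3 genes every Lin28a+ library was above every control library. Slc29a2, a nucleoside carrier, was at 3.37 and 2.90 CPM, then 5.70 and 4.50 CPM, a change of 0.71 ± 0.18 (adjusted p = 0.0396) that was lost with DESeq2 and without either control library or Lin28a+ library a. Slc39a1, a zinc importer, was at 337 and 355 CPM, then 447 and 423 CPM, a change of 0.33 ± 0.040 (adjusted p = 0.000972).

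**Figure D2:**
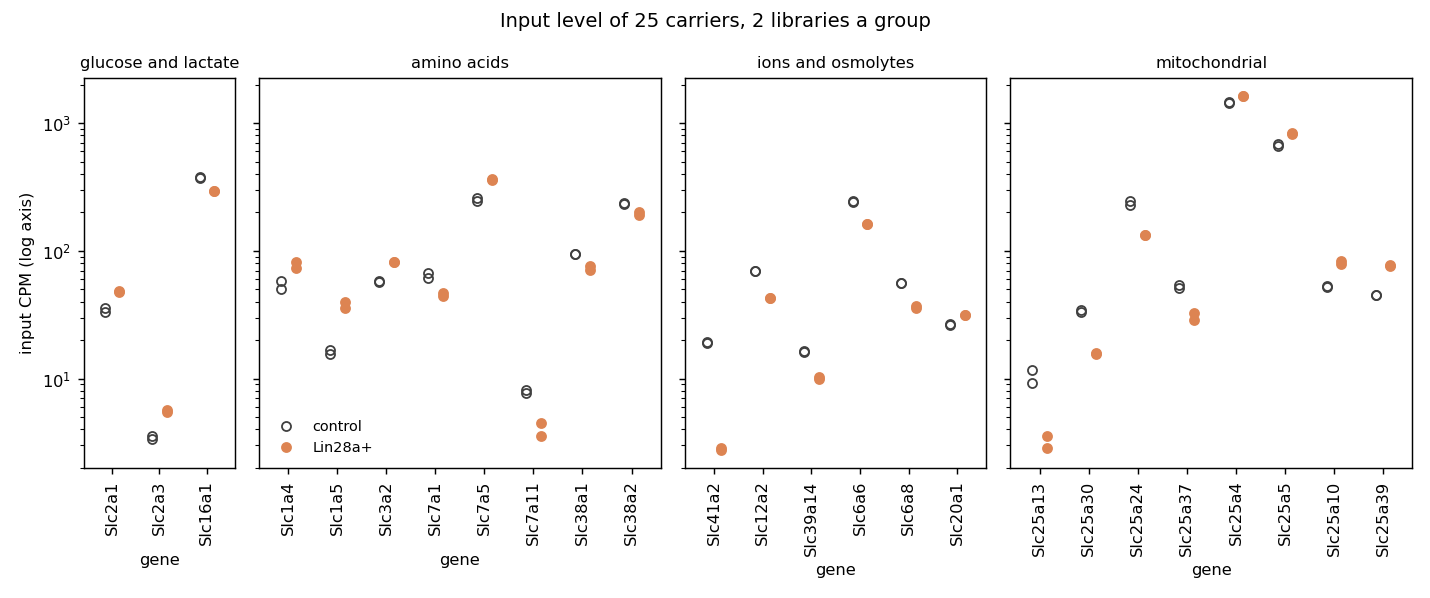
Input level in CPM (log axis) of 25 carriers in each of the 4 input libraries, in panels by what they carry, with open circles for control and filled orange circles for Lin28a+ libraries. Slc41a2, Slc25a13 and Slc25a30 lie lower and Slc1a5, Slc2a3 and Slc25a39 higher in both Lin28a+ libraries, while the 2 libraries of a group lie close together.

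Among mitochondrial carriers of the list set for the naming rule, Slc25a3, Slc25a4, Slc25a5, Slc25a10 and Slc25a11 were higher by up to 0.61 on the log2 scale, and the aspartate-glutamate carrier Slc25a13 fell furthest. Of the 11 in that list, 5 were higher, 3 lower and 3 did not pass the test. Slc25a4 and Slc25a5 exchange ADP for ATP across the inner membrane. Slc25a4 was at 1468 and 1431 CPM in the control and 1620.2 and 1626 CPM in the Lin28a+ libraries, a change of 0.16 ± 0.023 (adjusted p = 0.00169). Slc25a5 was at 662 and 688 CPM, then 831 and 822 CPM, a change of 0.29 ± 0.027 (adjusted p = 0.000372), so each had both Lin28a+ libraries above the controls. Slc25a3, the phosphate carrier, was at 343 and 348 CPM, then 374 and 366 CPM, a change of 0.097 ± 0.025 (adjusted p = 0.0213) that was lost with DESeq2 and without control replicate 1 or either Lin28a+ library. Slc25a10, the dicarboxylate carrier, rose from 52.3 and 53.6 CPM to 82.7 and 78.9 CPM, by 0.61 ± 0.044 (adjusted p = 0.000141). Slc25a11, the oxoglutarate carrier of the malate-aspartate shuttle, was at 96.7 and 94.6 CPM, then 109 and 115 CPM, a change of 0.23 ± 0.039 (adjusted p = 0.00398), lost with DESeq2 (adjusted p = 0.239). Slc25a1, the citrate carrier, at -0.22 and Slc25a12, an aspartate-glutamate carrier, at 0.11 did not pass the test.

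The largest mitochondrial fall was in Slc25a13, the second aspartate-glutamate carrier, at 9.18 and 11.6 CPM in the control and 3.54 and 2.86 CPM in the Lin28a+ libraries, a change of -1.70 ± 0.19 (adjusted p = 0.000646). Both Lin28a+ libraries were below both controls, whereas its paralogue Slc25a12 was at 32.8 and 33.5 CPM, then 36.8 and 35 CPM. Slc25a30, a carrier related to the uncoupling proteins, was at 34.5 and 33.1 CPM, then 15.7 and 15.7 CPM, a change of -1.10 ± 0.059 (adjusted p = 5.67e-05). Slc25a37, which imports iron, was at 54.5 and 51.7 CPM, then 28.7 and 32.9 CPM, a change of -0.78 ± 0.073 (adjusted p = 0.00036). Slc25a28, the other iron importer of this family, was at 8.99 and 8.53 CPM, then 13.6 and 14.1 CPM, a change of 0.66 ± 0.078 (adjusted p = 0.00131). The rise of Slc25a28 was lost with DESeq2 (adjusted p = 0.2197). Slc25a39, which imports glutathione, rose from 45 and 45.5 CPM to 75.5 and 77.9 CPM, by 0.76 ± 0.041 (adjusted p = 5.83e-05). Slc25a24, the ATP-magnesium and phosphate carrier, was at 228 and 244 CPM, then 132 and 134 CPM, a change of -0.83 ± 0.043 (adjusted p = 5.29e-05). Slc25a20, the carnitine-acylcarnitine carrier that admits fatty acids for oxidation, was at 57.9 and 57.9 CPM, then 47 and 48.7 CPM, a change of -0.28 ± 0.042 (adjusted p = 0.00336) that was lost with DESeq2 (adjusted p = 0.264). Slc25a15, the ornithine carrier, rose by 0.53 and Slc25a33, a carrier of pyrimidine nucleotides, by 0.38 (adjusted p = 0.00124 and 0.0224), both lost with DESeq2 and that of Slc25a33 also without control replicate 1 or Lin28a+ library b.

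Among other mitochondrial transport genes, from a list of channels, translocases and carnitine enzymes, 10 of 20 tested were higher and 3 lower, beside 28.1% and 28.7% of all genes, with a median log2 fold change of 0.18. Vdac3, an outer membrane channel, was at 173 and 173 CPM and 239.6 and 245 CPM (0.48 ± 0.027, adjusted p = 6.19e-05), and Mcu, the calcium uniporter, at 44.6 and 47.8 CPM and 25.2 and 29 CPM (-0.77 ± 0.079, adjusted p = 0.000506). Cpt1a, which makes the acylcarnitines that Slc25a20 carries, was at 42.9 and 44.2 CPM and 25.2 and 24.9 CPM (-0.80 ± 0.051, adjusted p = 9.32e-05), lower in both Lin28a+ libraries as Slc25a20 was. Solute carriers with another letter in the symbol counted 2 higher and 7 lower of 17 tested, with a median of -0.22, and partners and regulators of carriers 2 higher and 6 lower of 13, with a median of -0.12, to be read beside the same shares of all genes. Among the latter Sesn3 and Rragc, which act in amino acid sensing upstream of mTORC1, changed by -1.504 ± 0.065 and -0.58 ± 0.039 (adjusted p = 2.99e-05 and 0.000121).

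Organelle carriers that fell included some of lysosomes and the vesicular zinc carrier Slc30a4, whereas Slc30a6, of the same family, rose by 0.53 (adjusted p = 0.0302, edgeR). The rise of Slc30a6 was lost with DESeq2, without control replicate 1 and without Lin28a+ library b. Of the 6 members of family Slc30, 1 was higher, 2 were lower and 3 did not pass the test. Slc36a1, which exports small amino acids from lysosomes with protons, was at 10.7 and 11.3 CPM in the control and 5.11 and 5.72 CPM in the Lin28a+ libraries, a change of -1.02 ± 0.10 (adjusted p = 0.00044). Slc30a4, which moves zinc into vesicles, was at 129 and 132 CPM, then 75.3 and 74.4 CPM, a change of -0.81 ± 0.034 (adjusted p = 2.77e-05). Slc29a3, a lysosomal nucleoside carrier, was at 12.9 and 11.4 CPM, then 8.06 and 7.36 CPM, a change of -0.65 ± 0.11 (adjusted p = 0.00314). All 3 had both Lin28a+ libraries below both controls, as did Slc48a1, a haem carrier (-0.63), Slc17a5, the lysosomal sialic acid exporter (-0.62), and Slc33a1, which brings acetyl-CoA into the endoplasmic reticulum (-0.41). DESeq2 called 2 of the 36 organelle carriers, Slc30a4 and Slc48a1. Its adjusted p was 0.0805 for Slc36a1, 0.2495 for Slc29a3, 0.194 for Slc33a1 and 0.314 for Slc17a5, whose call was also lost without control replicate 2 or Lin28a+ library b. Of the Golgi nucleotide sugar carriers of the Slc35a group, Slc35a1, Slc35a3 and Slc35a5 were lower (-0.60, -0.65 and -0.63) and Slc35a4 was higher (0.21), all 4 lost with DESeq2 (adjusted p from 0.196 to 0.444), and those of Slc35a1, Slc35a4 and Slc35a5 also without Lin28a+ library b (for Slc35a4 without control replicate 1 too, and for Slc35a5 without control replicate 2 or Lin28a+ library a). Slc6a17, a carrier of neutral amino acids in synaptic vesicles, rose from 7.87 and 7.56 CPM to 12.2 and 13.1 CPM, by 0.71 ± 0.085 (adjusted p = 0.00105), a call lost with DESeq2 (adjusted p = 0.206), and Slc37a4, the glucose-6-phosphate carrier of the endoplasmic reticulum, by 0.57 ± 0.12 (adjusted p = 0.0449), a call lost in 7 of 10 alternatives, among them DESeq2 and each of the 4 libraries left out. Of the genes that are not carriers, the scaffold genes Slc9a3r1 and Slc9a3r2 rose by 0.22 and 0.72 and Slc7a6os by 0.37, while Slc4a1ap was at 0.019. DESeq2 called 0 of these 4. The calls of Slc9a3r2 and Slc7a6os were also lost without either control library, and without Lin28a+ library a for Slc9a3r2 and b for Slc7a6os.

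The m6A-RIP counts of the carriers also changed in both directions. The m6A-RIP table held 184 rows of 92 members, 68.1% of members beside 70.6% of all genes that meet the level rule, in 49 of 64 plasma membrane, 24 of 36 organelle and 16 of 29 mitochondrial carriers. With the rows of a gene summed, 33 members were higher and 33 lower in Lin28a+ MuSCs and 26 did not pass the test, 71.7% called beside 66.3% of all 9416 genes tested (32.5% higher and 33.8% lower) and 67.9% of those that meet the level rule. The median log2 fold change was -0.034 over the members and 0.007 over all genes. Plasma membrane carriers counted 18 higher and 21 lower of 49, organelle carriers 7 and 8 of 24 and mitochondrial carriers 7 and 4 of 16. Scaling by total counts in place of TMM turned the split into 22 higher and 40 lower (13 and 24 of plasma membrane, 5 and 10 of organelle and 4 and 6 of mitochondrial carriers), and that of all genes from 3060 higher and 3179 lower into 2395 higher and 3766 lower.

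The highest m6A-RIP rises were in carriers whose RNA also rose. Slc1a5 was at 52.8 and 54.2 CPM in the control and 131 and 121 CPM in the Lin28a+ m6A-RIP libraries, a change of 1.24 ± 0.054 (adjusted p = 1.13e-09) by edgeR's quasi-likelihood test. Slc24a3 changed by 1.20 ± 0.11 (adjusted p = 1.25e-06), Slc6a17 by 1.00 ± 0.18 (adjusted p = 0.000372) and Slc2a3 by 0.80 ± 0.18 (adjusted p = 0.00217). Slc29a2 and Slc25a10 followed, with 0.77 and 0.64, and in each of these genes both Lin28a+ libraries lay above both controls. The Slc29a2 call was lost without Lin28a+ m6A-RIP library b (adjusted p = 0.0793). The deepest falls were in Slc41a2, from 178 and 183 CPM to 57 and 55.2 CPM (-1.69 ± 0.045, adjusted p = 1.38e-11), and in Slc29a3, from 32.4 and 36.5 CPM to 13.2 and 10.2 CPM (-1.56 ± 0.12, adjusted p = 2.94e-07). The transcript given for the only Slc29a3 row is the one to which the table of Lin28a-RIP peaks assigns 3 peaks that lie in the neighbouring gene Unc5b, whose RNA changed by -1.52 ± 0.049, against -0.65 for Slc29a3. Slc23a2, Slc7a2, Slc36a1 and Slc44a1 changed by -1.34, -1.20, -1.10 and -1.09, also without overlap between groups.

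Of the amino acid carriers with m6A-RIP rows, Slc7a5, Slc3a2 and Slc1a4 rose by 0.47, 0.52 and 0.63, and Slc38a1 and Slc38a2 changed by -0.34 and -0.20, each past the threshold and in the direction of its RNA. The Slc38a2 call was lost without control m6A-RIP replicate 1 or Lin28a+ m6A-RIP library b (adjusted p up to 0.268). Slc7a1 had no m6A-RIP row. Slc2a1 rose by 0.53 and Slc16a1 changed by -0.34, both past the threshold. Of the ion and osmolyte carriers, Slc6a6 changed by -0.45, Slc6a8 by -0.29, Slc12a2 by -0.44 and Slc39a14 by -0.85, all past the threshold, Slc20a1 rose by 0.31, and Slc11a2 at 0.17 did not pass it. Of the mitochondrial carriers, Slc25a4, Slc25a5 and Slc25a11 rose by 0.17, 0.47 and 0.23 and Slc25a37 changed by -1.02, whereas Slc25a20 at -0.034 did not pass the test. Of 4 Slc25a4 rows, 2 carry the transcript whose Igf2bp3-RIP peaks lie in Cfap97. The Slc25a4 rise was 0.073 and did not pass when libraries were scaled by total counts (adjusted p = 0.101). Slc25a1, Slc25a3, Slc25a12 and Slc25a13 had no row.

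Of the 92 members, 33 had 1 row and 59 had more, up to 5. Row by row, 60 of 184 were higher and 50 lower, 59.8% called beside 61.8% of all 18881 rows (30% higher and 31.8% lower), with 33 higher and 65 lower when scaled by total counts. Rows past the threshold in both directions were found in 3 members, Slc6a8, Slc20a2 and Slc38a7, 5.08% of the 59 beside 5.98% of all genes with several rows. The creatine carrier Slc6a8 had 5 rows, of which 2 were higher and 3 lower. Its row with the deepest fall was at 86.6 and 88.3 CPM in the control and 53.8 and 55.9 CPM in the Lin28a+ libraries (-0.67 ± 0.055, adjusted p = 1.26e-07), and the row that rose most was at 25.2 and 28.7 CPM and at 33.4 and 33.9 CPM (0.32 ± 0.086, adjusted p = 0.00473), so the groups were apart in opposite directions within 1 gene. The m6A-RIP table gives no positions, so where in the gene these rows lie is not known here.

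Relative to the input, m6A-RIP changed in few carriers. In a model of both assays that asks whether m6A-RIP changed more or less than RNA, 4 of 92 members were higher, none was lower and 88 did not pass the test, 4.35% beside 7.18% of all 8064 genes tested (3.06% higher and 4.12% lower) and 7.17% of those that meet the level rule. At an unadjusted p under 0.05 there were 13, DESeq2 called 3 higher, and limma on unrounded values called 5 higher and 1 lower. Slc7a11 was the member with the largest difference, 1.39 ± 0.20 (adjusted p = 0.00161). Its m6A-RIP level was 17.7 and 18.4 CPM in the control and 24.7 and 23.5 CPM in the Lin28a+ libraries, while its input RNA went from 7.68 and 8.21 CPM to 3.54 and 4.50 CPM, so both assays had groups apart, in opposite directions. Of its 2 rows, 1 was at 14.9 and 15.7 CPM in the control and 23.3 and 21.7 CPM in the Lin28a+ libraries (0.56 ± 0.11, adjusted p = 0.00053), and the other at 2.48 and 2.30 CPM and at 1.86 and 2.20 CPM did not pass the test. The call held in all 14 alternatives.

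Slc41a2 had a difference of 1.07 ± 0.17 (adjusted p = 0.0029), with m6A-RIP lower by less than the RNA. The transcript given for 2 of its 3 m6A-RIP rows is also given to 8 Igf2bp3-RIP peaks. Of these, 4 lie in the neighbouring gene Chst11 and 4 in Slc41a2 itself, so the transcript does not tell the 2 genes apart. The third row, given to another transcript, had the deepest fall, -2.14 ± 0.17, against -1.62 and -1.52. Input RNA of Chst11 was at 645 and 649.9 CPM in the control and 210.3 and 221 CPM in the Lin28a+ libraries, a change of -1.59 ± 0.030. Slc25a36, a carrier of pyrimidine nucleotides, had m6A-RIP at 13.3 and 15.6 CPM, then 17 and 20.2 CPM with RNA at 15 and 14 CPM, then 9.63 and 9.81 CPM, a difference of 0.93 ± 0.21 (adjusted p = 0.0222) that was lost in 4 of 14 alternatives, each of them without 1 of the 4 input libraries. Its m6A-RIP rise taken alone (0.37) was lost in 3 of 9 alternatives, scaled by total counts, without control m6A-RIP replicate 1 and without Lin28a+ m6A-RIP library b, and its RNA fall was lost with DESeq2 (adjusted p = 0.267). Slc6a8 had a difference of 0.31 ± 0.076 (adjusted p = 0.0331) that was lost in 6 of 14, with DESeq2, without each of the 4 input libraries and without control m6A-RIP replicate 1. That of Slc41a2 was lost in 1, without Lin28a+ input library a (adjusted p = 0.072).

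**Figure D3:**
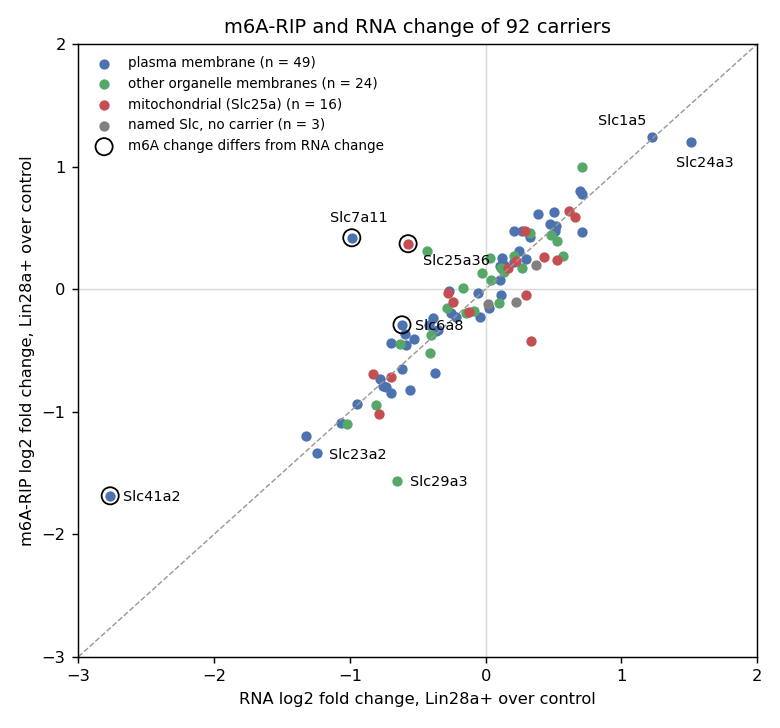
Log2 fold change (Lin28a+ over control) of m6A-RIP counts summed per gene against that of input RNA for the 92 members with m6A-RIP rows, with the line of equal change and the members that differ from it by the model of both assays named. Slc7a11, Slc41a2, Slc25a36 and Slc6a8 lie above the line, Slc7a11 with lower RNA and higher m6A-RIP.

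Lin28a-RIP peaks lay on 19 plasma membrane carriers and on 1 mitochondrial carrier. Lin28a-RIP was made in Lin28a+ MuSCs only, so there is no contrast with control MuSCs, and levels against the Lin28a+ input are described without a test. The table assigned 138 peaks to 27 members, 20% of members beside 27.7% of all genes that meet the level rule. Of these, 129 peaks of 24 members overlap the gene they are assigned to (RefSeq spans on GRCm38.p6). That is 17.8% of the members beside 24.3% of all genes that meet the level rule. By class this was 19 of 64 plasma membrane carriers (29.7%), 3 of 36 organelle carriers (8.33%), 1 of 29 mitochondrial carriers (Slc25a24, 3.45%) and Slc4a1ap among those that are not carriers. The difference between classes was not tested.

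Slc4a7, Slc38a1, Slc6a6, Slc12a2, Slc41a2 and Slc38a2 had the highest Lin28a-RIP levels over input, given as the difference of log2(CPM + 1) and described for each gene against its own input, on a scale that also holds any divisor of its input value, so the order of the genes may reflect that divisor. The sodium-bicarbonate carrier Slc4a7, with 14 peaks, had a difference of 5.16 ± 0.093 (SE), with Lin28a-RIP levels of 221 and 227 CPM and Lin28a+ input of 5.70 and 4.91 CPM. Slc38a1, with 10 peaks at 772 and 783 CPM in all, had 3.39 ± 0.047, and Slc38a2, with 10 peaks at 959.9 and 957 CPM, had 2.29 ± 0.036. Slc6a6 with 12 peaks and Slc12a2 with 16 had 2.99 each, and Slc41a2 had 2.85 in its 4 peaks. The SE of these values was at most 0.093. The lowest values were those of Slc7a1 at -2.17, Slc36a4 at -1.78, Slc30a5 at -1.49 and Slc16a1 at -0.37, with RIP levels below their input. Of the other amino acid carriers named, Slc1a5 had 1.14, Slc3a2 0.80 and Slc1a4 -0.33, and Slc20a1 had -0.24. The median was 1.13 over the 24 members and 1.54 over all 2492 genes with such a peak. Over all 27 members with a row it was 1.33, and it turned to -0.89 when CPM were computed over the genes present in both tables.

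The peak with most counts in Slc38a1, chr15:96571510-96576900 (5391 bases), held 67.1% of its Lin28a-RIP counts, 19079 and 17680 in the libraries. In Slc38a2 the strongest peak was chr15:96687810-96689472, 89.9% of the way along the gene, with 11143 and 10197 counts, and in Slc6a6 it was chr6:91755348-91757136, with 14716 and 13775 counts. Positions are those of the deposited peak tables. The strand is known here for genes that hold 78 of the 129 peaks. The median position of these was 72.6% along the gene and 26.9% lay beyond 90% of its length, beside 66.9% and 19.9% for all peaks so placed. Exons, introns and untranslated regions were not told apart, since only gene spans were at hand.

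**Figure D4:**
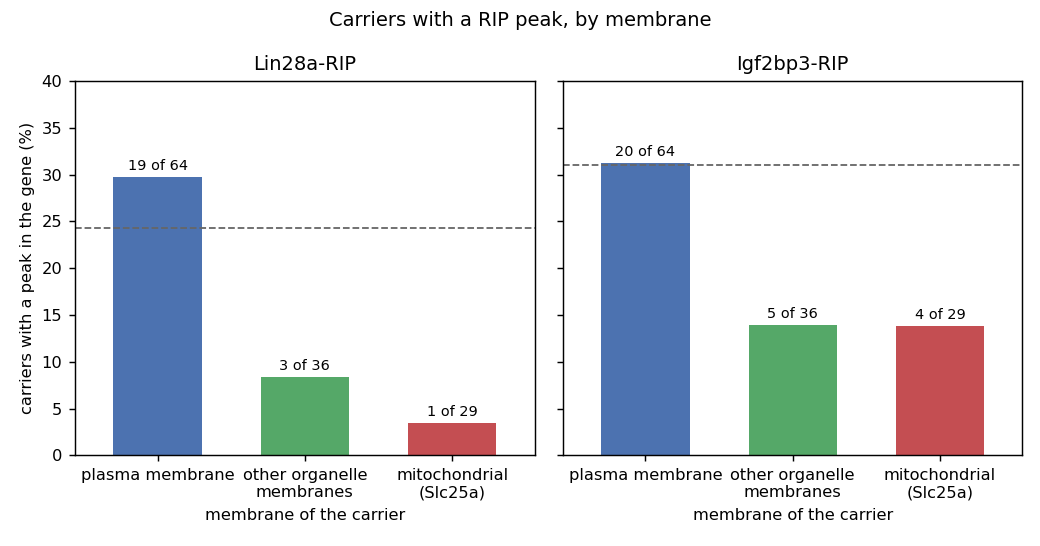
Percent of the members of each class with at least 1 peak that overlaps the gene, for Lin28a-RIP and Igf2bp3-RIP, with counts on the bars and a dashed line for the share of all genes that meet the level rule. Plasma membrane carriers reach 29.7% and 31.2%, mitochondrial carriers 3.45% and 13.8%, and the lines lie at 24.3% and 31.0%.

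Igf2bp3-RIP peaks lay on 20 plasma membrane, 5 organelle and 4 mitochondrial carriers. The table assigned 126 peaks to 35 members, 25.9% of members beside 35.7% of all genes that meet the level rule. Of these, 101 peaks of 29 members overlap their gene, 21.5% of members beside 31% of all genes that meet the level rule. By class this was 31.2% of 64, 13.9% of 36 and 13.8% of 29, the last being 4 carriers (Slc25a24, Slc25a36, Slc25a37 and Slc25a46). The other peaks lie outside the gene to which they are assigned, 896 to 43301 bases away. Both peaks given to Slc25a4 lie in Cfap97, those given to Slc25a17 in or beside St13, the 4 outer ones of Slc41a2 in Chst11, those of Slc30a6 in Spast and those of Slc37a2 in Ccdc15, so counts assigned to these carriers may stem from the other gene, which was not tested. The only peak of Slc25a29 lies in Yy1, and that of Slc25a33 in no gene.

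The strongest peak of Slc38a1, chr15:96574727-96576882, held 44.9% of its Igf2bp3-RIP counts, 2938 and 11328 in the control replicates 1 and 2 and 3841 and 15048 in the Lin28a+ replicates. It lies within the Lin28a-RIP peak given above. Slc30a4, the vesicular zinc carrier with no Lin28a-RIP peak, had 60.2% of its counts in chr2:122681301-122684521, 92.2% of the way along the gene. Slc25a24 had its strongest peak at chr3:109166215-109167378, 96.4% along the gene, and its strongest Lin28a-RIP peak at chr3:109166554-109167375. Of 69 peaks that could be placed, 39.1% lay beyond 90% of the length of the gene, beside 28.7% of all peaks so placed.

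Without a replicate block, no carrier passed edgeR's test for a change in Igf2bp3-RIP between the groups. Calls with the replicate number as a block differed and stand with the alternatives. Of 126 peaks and of 35 genes none passed the threshold, beside 0.123% of 19465 peaks and 0.287% of 4527 genes, and 4 peaks and 1 gene had an unadjusted p under 0.05 by edgeR. DESeq2 called 0 peaks and 0 genes of the members. The lower members with the smallest p were Slc44a2, Slc41a2 and Slc6a6. Slc44a2 was at 206 and 217 CPM in control replicates 1 and 2 and 149 and 136 CPM in Lin28a+ replicates 1 and 2, Slc41a2 at 388 and 579.5 CPM, then 229.5 and 356 CPM over all 8 peaks assigned to it, among them the 4 in Chst11, and Slc6a6 at 879 and 1391 CPM, then 803 and 721 CPM. Their changes were -0.57 ± 0.19, -0.72 ± 0.31 and -0.57 ± 0.31. The higher ones were Slc43a3, Slc25a17 (by peaks outside its gene) and Slc4a7, with 0.73 ± 0.37, 0.33 ± 0.19 and 0.36 ± 0.27. None of these passed the threshold (adjusted p from 0.509 to 0.796). Slc43a3, a carrier known for purine nucleobases, was at 9.30 and 18.1 CPM in the control and 24.5 and 21.5 CPM in the Lin28a+ libraries.

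The replicate numbers are not known to pair the libraries. For 15 of the 29 members with a peak overlapping their gene (51.7%) the Lin28a+ over control ratios of replicates 1 and 2 had opposite signs, beside 32.6% of the 3177 genes that meet the level rule and have such a peak. The ratios of members sum all peaks assigned to a gene, also those outside it, so counts from the overlapping peaks alone may differ. Slc7a11 had a log2 ratio of -1.54 in replicate 1 and 1.14 in replicate 2, with levels of 15.7 and 15.9 CPM in the control and 5.40 and 35.1 CPM in the Lin28a+ libraries. It has 2 peaks, 1 at chr3:50443097-50443501, 112 to 516 bases downstream of the start site whose upstream window is printed above and 41.6% along the whole gene span, and the other at 98.2% along the gene. Among the other named carriers Slc38a1, Slc38a2, Slc12a2 and Slc6a8 had fold changes of -0.0037, -0.085, 0.057 and -0.32, and Slc25a37 -0.15, none past the threshold. For 22 of 29 members (75.9%) the RNA change lay below both ratios over all assigned peaks, beside 60.5% of those 3177 genes, which are counts of values and not a test.

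Relative to the input no member of 35 passed the threshold in Igf2bp3-RIP, beside 1.08% of 3974 genes (0.352% higher and 0.73% lower), and 4 had an unadjusted p under 0.05. DESeq2 called 1 member, Slc41a2. Differences ran from -1.96 to 1.82 over the 35 members. The higher members with the smallest p were Slc41a2, Slc35a3 and Slc12a2, with 1.82 ± 0.46 (adjusted p = 0.0874) for Slc41a2, 0.64 ± 0.19 (adjusted p = 0.112) for Slc35a3 and 0.53 ± 0.18 (adjusted p = 0.146) for Slc12a2. With only the 4 peaks that overlap Slc41a2 its difference was 1.45 ± 0.41 (adjusted p = 0.11). The lower members named by p were Slc30a6, Slc7a6 and Slc25a4, with -0.54 ± 0.23, -0.32 ± 0.18 and -0.52 ± 0.39. Both peaks of Slc30a6 lie in Spast and both of Slc25a4 in Cfap97, so these 2 values set peaks in another gene against the input of the carrier. RNA of Spast and Cfap97 changed by -0.30 and -0.52, against 0.53 and 0.16 for Slc30a6 and Slc25a4. The level over input had a median of 1.09 in control and 1.64 in Lin28a+ MuSCs over the 29 members, beside 1.17 and 1.43 over all 3177 genes with such a peak. Over all 35 members with a row the control median was 1.16 and turned to -0.52 when CPM were computed over the genes present in both tables, where the Lin28a+ median went from 1.66 to 0.010. This level too holds any divisor of the input value, so the order of genes is a description only. In Lin28a+ MuSCs the highest were Slc39a10, a zinc importer, at 3.45, Slc44a1 at 3.44, Slc38a1 at 3.39, Slc30a4 at 3.16, Slc4a7 at 3.15 and Slc35a3 at 3.13. The lowest were Slc38a10 at -1.31, the copper importer Slc31a1 at -1.125, the sulphate carrier Slc26a2 at -0.86 and Slc25a37 at -0.61.

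**Figure D5:**
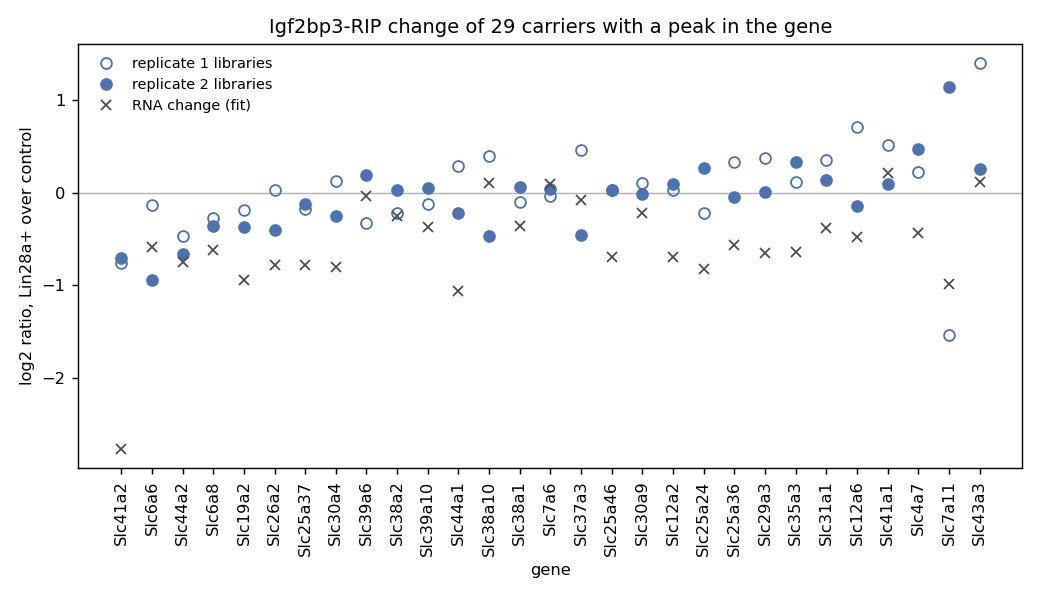
Log2 ratio of Igf2bp3-RIP counts (Lin28a+ over control) in replicates 1 and 2 for the 29 carriers with a peak overlapping their gene, with crosses for the change of input RNA. Counts are summed over all peaks assigned to a gene, also those outside it. The RNA change lies below both ratios in 22 of 29 carriers (60.5% of all genes with such a peak), and the replicate ratios of Slc7a11, -1.54 and 1.14, are the farthest apart.

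Lin28a-RIP and Igf2bp3-RIP peaks met on the same stretches in part of the carriers. Of 138 Lin28a-RIP peaks 51 (37%) overlap an Igf2bp3-RIP peak by at least 1 base, and of 126 Igf2bp3-RIP peaks 53 (42.1%) overlap a Lin28a-RIP peak, in 14 members. Over all genes that meet the level rule these shares were 52.2% and 62.2%. With only peaks that overlap their gene these were 48 of 129 (37.2%) and 51 of 101 (50.5%), in 13 members, beside 51.6% and 64.1% over those genes. Of 39 members with such a peak of either protein (35.9% with both, beside 52.9% of 3707 such genes), peaks of both were present on 14, among them Slc38a1, Slc38a2, Slc6a6, Slc12a2, Slc4a7, Slc44a1, Slc44a2 and Slc25a24, peaks of Lin28a only on 10, among them Slc1a4, Slc1a5, Slc3a2, Slc7a1 and Slc16a1, and peaks of Igf2bp3 only on 15, among them Slc7a11, Slc6a8, Slc30a4 and Slc25a37. In Slc38a2, 8 of 10 Lin28a-RIP peaks and all 7 Igf2bp3-RIP peaks overlapped. In Slc12a2 it was 3 of 16 and 4 of 4, and in Slc1a4, Slc1a5 and Slc3a2, with 4, 4 and 3 Lin28a-RIP peaks, none, since no Igf2bp3-RIP peak was assigned to them.

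Around the level rule, the members with the lowest value just inside were Slc25a14, Slc25a40 and Slc29a4, with lowest input values of 10.75, 11.75 and 12.5. Just outside were Slc8a1 with 8.10, Slc25a47 with 8.2 and Slc22a23 with 9.999998. Slc22a23 had input values of 76.8 and 90.8 in control and 9.999998 and 12.8 in Lin28a+ libraries. Of the 88 solute carrier genes below the rule, 18 passed the filter on low values, each through the group where it was high, so no test of them is given.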

How the data were processed

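Input RNA, m6A-RIP, Igf2bp3-RIP and Lin28a-RIP libraries were read from the tables deposited by the authors. The submitters' processing notes list FastQC, HISAT2 2.0.4, MACS2 1.4.3 and DESeq2 1.42.0, with GRCh38 and mm10 as builds, and the peak coordinates are on mouse chromosomes. For the RIP libraries the authors deposited counts per peak or row without scaling. Estimated counts per gene, likewise unscaled, were deposited for the input libraries, and how these were made is not given in the sources used here. A general statement in the study's methods gives 3 or more biological replicates for each experiment, and each group here had 2 libraries of a kind. Columns were assigned by name. The Lin28a+ columns of the input table, which bear m6A-RIP names, and those of the m6A-RIP table, which share 1 name, were assigned to their group only, the former because the labels point to that table and no other column is left.

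As deposited, the 2 Lin28a+ input libraries differed by no more than counting noise (chi-square of 1.015 per degree of freedom). Over the 4312 genes whose values become whole when multiplied it was 0.983 as deposited and 7.565 once each gene's values were multiplied by its whole number, so both were kept as separate libraries. Input values were rounded to whole numbers for the tests. edgeR 4.0.16 in R 4.3.3 fitted each whole table (TMM, filterByExpr, quasi-likelihood test), and p-values were adjusted by Benjamini-Hochberg over it. Changes relative to input came from a joint model of RIP and input libraries with an interaction term. Fits were tested on simulated data. Alternatives were DESeq2 1.42.0, other scalings and filters, a replicate block for Igf2bp3-RIP and each library left out. After the data had been seen, limma 3.58.1 on log2(CPM + 0.5) of unrounded values and a count of only those peaks that overlap their gene were added. Levels over input used a pseudocount of 1 CPM, or 0.1 as an alternative. Carriers were sorted by family with exceptions. Gene spans and the names of RIP rows came from RefSeq (GRCm38.p6), those of input rows from Ensembl gene IDs, and 99.96% to 99.98% of rows were named. A gene ID by which input and RIP values could be joined was found for 97.7% of input genes. Members, lists and the rule for named genes were chosen with earlier results of these data known. Named were carriers of set groups, apart from some that are not reported here, and in each fit the 6 members with the largest significant rises and falls whose libraries did not overlap. For Igf2bp3-RIP these were the 3 of smallest p in each direction, and for levels over input the 6 highest and 4 lowest. Other carriers given with values were picked after these had been seen. Lin28a itself was not analysed here.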

Additional observations from a re-analysis of the deposited data

Results flagged for a closer look

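For 4 carriers the change of m6A-RIP counts differed from that of input RNA in the same cells by the interaction test. The difference (log2, m6A-RIP minus input) was 1.39 for Slc7a11, 1.07 for Slc41a2, 0.93 for Slc25a36 and 0.31 for Slc6a8. In Slc7a11 and Slc25a36 m6A-RIP counts rose past the threshold of their own test while RNA fell past that of its own, and in Slc41a2 and Slc6a8 both fell. For Slc25a36 the m6A-RIP rise was lost in 3 of 9 alternatives (adjusted p up to 0.217) and the RNA fall with DESeq2, as was the RNA fall of Slc7a11 (adjusted p = 0.17). No alternative lost the difference of Slc7a11. Without 1 of the input libraries the number of carriers with higher m6A-RIP relative to input went from 4 to 2 (control replicate 1 or 2, or Lin28a+ library b) or 1 (Lin28a+ library a).

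Solute carrier genes below the level rule also had rows in the RIP tables. There were 15 such genes in Lin28a-RIP, 21 in Igf2bp3-RIP and 52 in m6A-RIP, the last without positions. Peaks overlapping the gene were left for 1 of the 15 (Slc8a1, 3 peaks) and for 2 of the 21 (Slc8a1 and Slc5a2, 3 peaks in all). The other peaks lie outside the named gene, for example those given to Slc18a2 in Pdzd8 and those given to Slc1a2 in Cd44.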

How the results depend on the processing

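Over all results, 170 values of counts and medians stayed within their limits, 30 moved and 2 changed sign. Of values of single genes 982 kept direction and side of the threshold, 53 no longer passed it, 14 newly passed it and 3 changed sign. DESeq2 called 11 members higher and 24 lower in RNA, against 29 and 44, and with 1 library left out the counts were 20 to 24 and 37 to 42. Scaled by total counts, 33 m6A-RIP rows were higher and 65 lower. For m6A relative to input, leaving out 1 library gave 1 to 5 higher and 0 to 1 lower (1 without control m6A-RIP replicate 2 or Lin28a+ m6A-RIP library a), and limma 5 higher and 1 lower. For Igf2bp3-RIP peaks it gave 0 to 1 lower, and relative to input 0 to 4 higher and 0 to 1 lower, the highest without Lin28a+ Igf2bp3-RIP replicate 1. DESeq2 called 1 member higher there.

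Medians of levels over input changed with CPM over the genes in both tables to -0.89 in Lin28a-RIP (from 1.33), -0.52 in control Igf2bp3-RIP (from 1.16), 0.010 in Lin28a+ Igf2bp3-RIP (from 1.66), and 0.098 and 0.10 in control and Lin28a+ m6A-RIP (from 0.58 and 0.55), which were 0.60 and 0.605 with a pseudocount of 0.1 CPM. With only peaks that overlap their gene they were 1.13 in Lin28a-RIP and 1.09 in control Igf2bp3-RIP. With 1 library left out they ranged from 1.21 to 1.36 in Lin28a-RIP, 1.16 to 1.26 in control Igf2bp3-RIP, and 0.54 to 0.62 and 0.53 to 0.61 in control and Lin28a+ m6A-RIP. The causes were not tested. The log2 fold changes that changed sign when a library was left out, none past the threshold in the main fit, ranged from -0.0042 to 0.18 in Slc7a6 RNA and, in m6A-RIP, from -0.047 to 0.35 in Slc25a17 and -0.20 to 0.18 in Slc25a20. That of Slc25a17 passed the threshold in 1 of 9 alternatives.

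With a replicate block in Igf2bp3-RIP, 2 peaks of members were higher (1 given to Slc25a17, outside the gene, and 1 given to Slc43a3) and 13 lower (8 given to Slc41a2, 3 given to Slc6a6, 1 each given to Slc44a2 and Slc25a33), and 3 genes were lower (Slc41a2, Slc44a2 and Slc25a33) and 0 higher. The differences between replicates 2 and 1 had a correlation of 0.688 between the groups over peaks. Both replicate 1 libraries were also shallower than both replicate 2 libraries. What same-numbered libraries share beyond depth is not known, since the labels give no batch, and the block rests on 2 pairs. No paired analysis was possible for RNA, m6A-RIP and the fits relative to input because the Lin28a+ input columns bear names of m6A-RIP libraries and both Lin28a+ m6A-RIP columns bear 1 name, so that no replicate number could be tied to them. The depth of the replicate 1 Igf2bp3-RIP libraries and the divisors of the input values limit these comparisons.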

Other observations

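Some solute carriers below the level rule had wide differences in RNA between the groups, and they were chosen for this paragraph after their values were seen. They passed the filter on low values through the group where they are high, so their values are a description with no test. Slc2a5, known as a fructose carrier, was at 1.69 and 0.97 CPM in the control and 6.29 and 6.34 CPM in the Lin28a+ libraries. Slc1a6, a glutamate carrier, was at 0.375 and 0.322 CPM and at 5.90 and 3.68 CPM, and its control input values were 2 and 1.5. Slc16a3, the lactate exporter, was at 1.31 and 1.45 CPM and at 2.95 and 2.86 CPM, and the iron exporter Slc40a1 was at 2.06 and 2.25 CPM and at 0.98 and 1.02 CPM. Slc22a23, of the organic ion carrier family, was at 14.4 and 14.6 CPM in the control and 1.97 and 2.66 CPM in the Lin28a+ libraries.

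Slc8a1, the sodium-calcium exchanger, was at 1.4985 and 1.61 CPM in the control and 4.32 and 3.68 CPM in the Lin28a+ input libraries. One of its Igf2bp3-RIP peaks, chr17:81387640-81387992, held 17 and 23 counts in control replicates 1 and 2 and 115 and 169 counts in Lin28a+ replicates 1 and 2. A Lin28a-RIP peak with the same start, chr17:81387640-81387848, held 131 and 142 counts.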
